A study of Homo sapiens with 12 samples.

Results

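Cells carrying the fusion transcription factor PAX3-FKHR-ER were set against cells carrying the empty vector pK1, with 4-hydroxytamoxifen (4-OHT) given to both. The comparison used 6 of the series' 12 arrays, chosen by their sample titles: 3 labelled PAX3-FKHR-ER with 4-OHT and 3 labelled pK1 with 4-OHT. All cells were RD, an established line from an embryonal rhabdomyosarcoma, a tumour of muscle-like cells, grown in DMEM with fetal bovine serum. The fusion group was transduced with PAX3-FKHR joined to a modified ligand-binding domain of the estrogen receptor, and the control group with the vector alone. Both had 30 nM 4-OHT for 24 h, so drug and cell line were shared and the construct was the labelled difference. The remaining 6 arrays held the same constructs without 4-OHT. The design names 3 populations of cells per construct, but no label ties a replicate number to a population. Where replicates share a source, a p-value measures only the spread between these samples.

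PAX3-FKHR joins the DNA-binding domains of PAX3, a regulator of muscle precursors, to the activation domain of FKHR (now FOXO1), and is the driver of most alveolar rhabdomyosarcomas. A protein fused to the estrogen receptor domain is held inactive by chaperones until 4-OHT releases it. Genes known as targets of the fusion in this tumour include the receptors FGFR4, MET and CXCR4 and the transcription factors MYOD1 and MYCN.

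The 3 named genes with the largest positive differences past the threshold in replicates 2 and 3 are shown first by the 250 bases before their first listed start, from RefSeq (GRCh38.p14). CXCR4 lies on chr2:136118150-136118399 (minus strand), GREM1 on chr15:32717754-32718003 (plus strand) and CCNA1 on chr13:36431705-36431954 (plus strand), each read 5′ to 3′ towards the start. Capitals mark GTCACG, part of the sequence that the paired domain of PAX3 reads.
CXCR4: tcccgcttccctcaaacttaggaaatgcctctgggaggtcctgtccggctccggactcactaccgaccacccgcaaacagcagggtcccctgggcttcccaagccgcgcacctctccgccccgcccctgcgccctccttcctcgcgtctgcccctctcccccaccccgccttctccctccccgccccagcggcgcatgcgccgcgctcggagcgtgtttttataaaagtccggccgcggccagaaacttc
GREM1: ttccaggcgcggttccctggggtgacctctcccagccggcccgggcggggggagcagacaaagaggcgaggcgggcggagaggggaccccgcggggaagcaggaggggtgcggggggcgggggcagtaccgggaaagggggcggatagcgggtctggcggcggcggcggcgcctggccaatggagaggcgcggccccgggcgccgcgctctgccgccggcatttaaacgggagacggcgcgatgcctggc
CCNA1: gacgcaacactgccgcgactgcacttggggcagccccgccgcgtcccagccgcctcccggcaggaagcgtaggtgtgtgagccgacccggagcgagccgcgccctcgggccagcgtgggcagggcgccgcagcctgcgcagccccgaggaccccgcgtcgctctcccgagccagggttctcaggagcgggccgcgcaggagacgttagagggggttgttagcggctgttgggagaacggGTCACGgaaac
GTCACG was found once, in CCNA1, beginning 11 bases before the start, and it occurs on either strand in 7.93% of 35116 promoters of this length. CAGCTG, an E-box read by MYOD1 (14% of promoters), was not in these 3 windows on either strand. Another searched motif, whose letters are not printed here, occurs in 0.399% of promoters and was also absent from these 3 windows. The search covered these motifs in these windows alone. Of the 9 genes past the threshold in replicates 2 and 3, 6 had an entry in the promoter table.

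Replicate 1 stood apart from replicates 2 and 3. Poly-A controls are RNAs added to the sample ahead of labelling. Their 24 probe sets had a median signal of 2.58 and 2.77 on the replicate 1 arrays and of 118 to 291 on the other 4. Log2 signals of the replicate 1 arrays correlated at 0.965 with each other and at 0.815 to 0.869 with the other treated arrays. Fusion-labelled replicates 2 and 3 correlated at 0.953, and pK1-labelled replicates 2 and 3 at 0.878. Between the labels, replicates 2 and 3 correlated at 0.867 to 0.931. The pK1-labelled replicate 3 array lay closer to fusion-labelled replicates 2 and 3 (0.911 and 0.931) than to pK1-labelled replicate 2. The pK1-labelled replicate 2 array had the highest 3′ to 5′ signal ratios of the series, 1.62 for ACTB and 1.17 for GAPDH, against 0.833 to 1.05 for ACTB elsewhere. The part of RNA quality in the results was not tested.

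Genes of the construct did not separate the groups in replicate 1. The tested PAX3 probe set read 58.9, 92.7 and 73.1 on fusion-labelled replicates 1, 2 and 3, and 57.8, 41.5 and 50 under pK1. Its groups did not overlap, but the replicate 1 values were nearly equal. The brighter FOXO1 probe set read 138, 78.3 and 83.9 against 121, 42.4 and 46.0. ESR1, the source of the receptor domain, read 44.7, 58.6 and 39.2 against 58.4, 5.05 and 5.78 by the probe set with the widest gap, chosen after its values were seen. By these probe sets the fusion label held the higher PAX3, FOXO1 and ESR1 signals in replicates 2 and 3. In replicate 1 the order was reversed for this ESR1 probe set. Without 4-OHT the same probe set read 7.5, 121 and 76.2 against 57, 4.16 and 12.7, so the order was reversed in replicate 1 there too. On the replicate 1 arrays without 4-OHT, PAX3 read 17.6 against 49.4 and the brighter FOXO1 probe set 142 against 214. Another FOXO1 probe set went the other way there, at 313 against 198. Over all 6 arrays with 4-OHT the groups overlapped by each of the 3 tested ESR1 probe sets. In replicates 2 and 3 a second one lay apart, at 60.3 and 48.4 against 41.9 and 23.3, and the third overlapped, at 52.5 and 29 against 25.9 and 47.3. In replicate 1 the second read 33 against 39.4 and the third 48.8 against 35.6, so the 3 disagreed in order there. A second FOXO1 probe set ran the other way in replicates 2 and 3, at 257, 3.71 and 16.4 against 69.5, 56.4 and 36.6. Where each probe set lies in the construct was not analysed here. Samples are named by their labels throughout. Whether the construct labels of the replicate 1 arrays were exchanged was not tested. An exchange would turn the sign of every replicate 1 difference and would change every difference over 12 arrays.

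Over all replicates, no gene passed the test between the fusion and pK1 labels with 4-OHT. Genes whose signals did not overlap between 3 and 3 arrays included LTBP4, SLC6A3, OSR2 and PDLIM3 on the higher side of the fusion label and CHST3, EPAS1 and PAPSS2 on the lower side. In bulk RNA, fewer cells with a gene and less RNA of it per cell cannot be told apart. In the limma fit to 12 arrays, 0 of 13329 probe sets (0%) passed a Benjamini-Hochberg adjusted p of 0.05 in either direction, and the smallest adjusted p was 1. At an unadjusted p under 0.05, 152 were higher (1.14%) and 115 lower (0.863%). With the replicate number as a block the count past the threshold was again 0, with 497 higher (3.73%) and 434 lower (3.26%) at the unadjusted level. Signals did not overlap between the 3 and 3 arrays for 424 probe sets on the higher side (3.18%) and 282 on the lower side (2.12%). In genes, each by its brightest probe set, these were 240 (2.95%) and 179 (2.2%) of 8124.

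The probe sets described here have the smallest unadjusted p among those without overlap, and none passed the test. SLC6A3, the dopamine transporter, read 41.4, 77.2 and 65.4 under the fusion label and 11, 11 and 11.7 under pK1. The log2 difference was 1.48 ± 0.40 (SE, unadjusted p = 0.00342, adjusted p = 1). All 3 fusion-labelled arrays were above a flat and dim pK1 level, though without 4-OHT the pK1-labelled arrays read 58.5, 9.59 and 41.6. Without replicate 1 the SLC6A3 difference was 1.67 ± 0.42 (adjusted p = 0.302). LTBP4, which binds latent TGF-beta in the matrix, read 65.3, 33.4 and 57.9 against 20.6, 5.71 and 7.94, a difference of 1.32 ± 0.33, and of 1.41 ± 0.38 without replicate 1. Both other tested LTBP4 probe sets differed by less, at 0.09 and 0.54, so the probe sets of this gene disagreed.

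OSR2, a zinc finger factor of limb and craniofacial development, read 85.7, 159 and 225 against 67.0, 64.8 and 50.2 (1.09 ± 0.30, and 1.49 ± 0.30 without replicate 1). PDLIM3, a PDZ and LIM protein of the muscle Z-disc, read 59.2, 116 and 129 against 30.5, 29.4 and 58.2 (1.07 ± 0.32, and 1.25 ± 0.32 without replicate 1). Its brighter probe set also lay apart, at 1033, 1590 and 1632 against 553, 300.0 and 948. PDLIM3 was therefore higher under the fusion label by both probe sets in each replicate, though neither passed the test. DBNDD1 (1.51), ZNF609 (1.19), SSBP2 (0.87) and PPDPF (0.60) were the other genes on the higher side. Without replicate 1 their differences were 2.04, 1.21, 0.61 and 0.64. For ZNF609 another tested probe set differed by 0.29 only.

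EPAS1, an oxygen-regulated transcription factor, had the largest difference of the 8 on the lower side. It read 21.1, 8.76 and 35.2 under the fusion label and 136, 75.1 and 214 under pK1. The log2 difference was -2.03 ± 0.52 (unadjusted p = 0.00226, adjusted p = 1), and by replicate it was -2.03, -1.88 and -2.17. Without replicate 1 it was -2.02 ± 0.55 (adjusted p = 0.323). CHST3, a chondroitin sulfotransferase, read 17.2, 14.2 and 8.62 against 90.1, 33.3 and 78.2 (-1.44 ± 0.33, and -1.32 ± 0.43 without replicate 1). A second tested CHST3 probe set differed by -0.59.

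PAPSS2 makes the sulfate donor that such enzymes use. It read 54.1, 29.1 and 23.4 against 62.7, 159 and 111 (-1.27 ± 0.36, and -1.82 ± 0.33 without replicate 1), so the groups came close in replicate 1. Both other tested PAPSS2 probe sets differed by less, at -0.22 and -0.77. SND1, a nuclease of RNA silencing complexes, had tight groups, at 328, 362 and 340 against 531, 517 and 546 (-0.61 ± 0.19, and -0.58 ± 0.21 without replicate 1). VAT1 (-0.62), RARS1 (-0.72), TMED10 (-0.84) and HPS1 (-0.81) completed the lower side, with -0.75, -0.64, -1.06 and -1.08 without replicate 1. Other tested probe sets of HPS1 lay between -0.34 and 0.01, and another of TMED10 at -0.23.

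**Figure D1:**
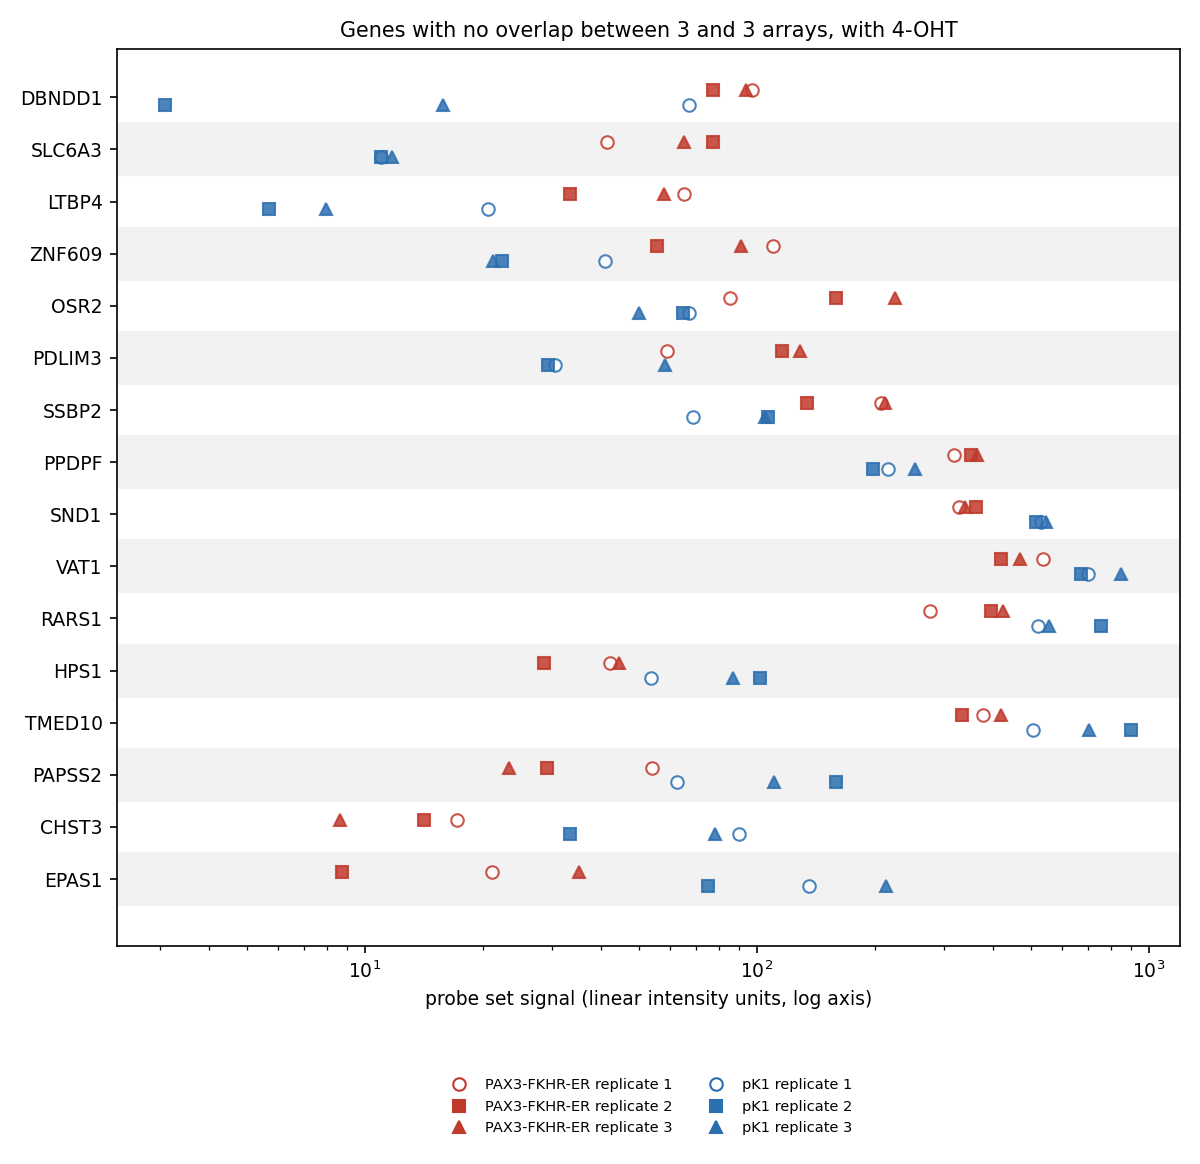
Signals (linear units on a log axis) of the 16 genes without overlap between the 3 fusion-labelled arrays (red) and the 3 pK1-labelled arrays (blue) with 4-OHT, 1 probe set a gene; open circles are replicate 1, squares replicate 2 and triangles replicate 3. EPAS1 lies at 8.76 to 35.2 against 75.1 to 214, and SLC6A3 at 41.4 to 77.2 against 11 to 11.7; none of the 16 passed the adjusted threshold.

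Within replicates 2 and 3, CXCR4, GREM1, CCNA1, MYOD1, TMEM47, LGR5 and PALLD had higher signals in cells labelled with the fusion, and FABP5 and ANXA4 had lower ones. In the limma fit to the 8 arrays of these replicates, 11 of 13329 probe sets were higher past the adjusted threshold (0.0825%) and 2 were lower (0.015%). Counted as genes by the brightest probe set, 7 were higher (0.0862%) and 2 lower (0.0246%). With the replicate block, 17 probe sets were higher (0.128%) and 4 lower (0.03%), and these 21 held all 13 of the fit without it. The count rested on both fusion-labelled arrays and on pK1-labelled replicate 2: it was 0 without fusion-labelled replicate 2, without fusion-labelled replicate 3 or without pK1-labelled replicate 2, and 22 without pK1-labelled replicate 3. It was also 0 when the spread came from the 4 treated arrays alone, with a smallest adjusted p of 0.0718.

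CXCR4 is the receptor for the chemokine CXCL12 and guides cell migration. The probe set with the smallest p read 198, 2126 and 2460 under the fusion label and 885, 127 and 189 under pK1. In replicates 2 and 3 the fusion-labelled signals were far above pK1, and in replicate 1 the order was reversed. The difference in replicates 2 and 3 was 3.75 ± 0.32 on the log2 scale (adjusted p = 0.0194), and over 12 arrays it was 1.81 ± 0.93 (adjusted p = 1). A second probe set gave 3.40 ± 0.30. The remaining tested probe set read 1952 and 1823 against 90.2 and 151 and missed the threshold (adjusted p = 0.0589). By the first probe set, the pK1-labelled replicate 1 array with 4-OHT read 885 and the one without it 180, while the fusion-labelled replicate 1 arrays read 198 and 119.

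GREM1 encodes gremlin, a secreted antagonist of BMP ligands. It read 14.9, 292 and 321 under the fusion label and 72.7, 5.49 and 16.4 under pK1. The difference in replicates 2 and 3 was 3.61 ± 0.36 (adjusted p = 0.0335), and a second probe set gave 2.75 ± 0.30. Replicate 1 again ran the other way, at -1.52, and over 12 arrays the difference was 1.90 ± 0.88 (adjusted p = 1).

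CCNA1, a cyclin best known from the germ line, read 25.8, 254 and 295 against 91.2, 26.2 and 5.21. The difference was 3.28 ± 0.35 (adjusted p = 0.0335), with -1.36 in replicate 1 and 1.73 ± 0.73 over 12 arrays (adjusted p = 1). Its promoter was the only one of the 3 printed windows with GTCACG.

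MYOD1, the master regulator of skeletal muscle and a known target of the fusion, was bright everywhere. It read 1216, 1912 and 1809 against 2098, 197 and 322, so the low values were those of pK1-labelled replicates 2 and 3. The difference was 2.80 ± 0.31 in those replicates (adjusted p = 0.0335) and -0.78 in replicate 1, with 1.61 ± 0.75 over 12 arrays (adjusted p = 1). The arrays without 4-OHT read 1006, 1380 and 1111 against 1112, 222 and 367.

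LGR5, a receptor for R-spondins that strengthens Wnt signals, was the called gene with a positive difference in all 3 replicates. It read 164, 1015 and 981 against 85.9, 155 and 259. The groups still overlapped over all 6 arrays, since fusion-labelled replicate 1 lay under pK1-labelled replicate 3. The differences by replicate were 0.82, 2.59 and 1.86, and the fit to replicates 2 and 3 gave 2.23 ± 0.26 (adjusted p = 0.0398), against 1.76 ± 0.66 over 12 arrays (adjusted p = 1). A second LGR5 probe set gave an adjusted p of 0.0975.

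PALLD, palladin, organises actin bundles. It read 111, 707 and 763 against 567, 161 and 197, a difference of 1.95 ± 0.21 (adjusted p = 0.0335) and -2.20 in replicate 1. TMEM47, a membrane protein of cell junctions, read 7.61, 875 and 843 against 12.1, 193 and 144 (2.26 ± 0.25, adjusted p = 0.0335). In replicate 1 TMEM47 was dim under both labels. Over 12 arrays the differences were 0.57 ± 0.73 for PALLD and 1.42 ± 1.59 for TMEM47 (both adjusted p = 1). A probe set without a single gene symbol was also higher in replicates 2 and 3, at 28.8, 247 and 316 against 95.1, 32.2 and 20.6. It too had the opposite sign in replicate 1 (-1.31).

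FABP5, a carrier of fatty acids and retinoic acid, had the largest negative difference past the threshold. It read 642, 8.93 and 11 under the fusion label and 1007, 374 and 269 under pK1. All 3 differences were negative, at -0.64, -3.97 and -3.40, but replicate 1 was bright under both labels. In replicates 2 and 3 the difference was -3.68 ± 0.29 (adjusted p = 0.0194), and over 12 arrays -2.67 ± 1.39 (adjusted p = 1). ANXA4, an annexin that binds membranes with calcium, read 2.22, 8.89 and 4.25 against 1.83, 113 and 134 (-2.63 ± 0.30, adjusted p = 0.0384), and over 12 arrays it differed by -1.74 ± 0.86 (adjusted p = 1). By this probe set ANXA4 was near 0 except under pK1 in replicates 2 and 3, and a second probe set missed the threshold (adjusted p = 0.251).

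A further 8 probe sets passed the threshold with the block alone. The block takes arrays of equal number as paired. For replicates 2 and 3 that pairing was not borne out, since their contrast correlated at 0.01 between constructs. SOCS2, a suppressor of cytokine signalling, read 32.2, 362 and 459 against 51.5, 73.8 and 92.6 (2.10 ± 0.26, adjusted p = 0.0506 without the block and 0.0385 with it). PLXNC1, a semaphorin receptor, read 17.9, 355 and 169 against 49.2, 20.0 and 15.3. MET, the receptor for hepatocyte growth factor, read 196, 485 and 352 against 319, 56.4 and 64.2. Its brighter probe set, at 236, 531 and 395 against 378, 102 and 135, missed the threshold without the block (adjusted p = 0.15) and with it (adjusted p = 0.0938). These 3 genes exceeded pK1 in replicates 2 and 3 and fell short of it in replicate 1.

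SKP2, which marks cell cycle inhibitors for degradation, read 424, 674 and 896 against 1378, 106 and 211. VAV3 read 72.8, 433 and 405 against 293, 65.6 and 104, and POU4F1, a factor of sensory neurons, 228, 877 and 605 against 362, 278 and 130. Without the block the adjusted p of SKP2, VAV3 and POU4F1 was 0.0623, 0.0852 and 0.251. In replicate 1 all 3 were lower under the fusion label, by differences of -1.66, -1.80 and -0.63. The brighter SKP2 probe set missed the threshold with the block (adjusted p = 0.0684). On the lower side, KCTD12, a subunit of GABA-B receptors, read 101, 17.8 and 21.3 against 19.2, 474 and 207. ID1, an inhibitor of MYOD1-type factors, read 1614, 82.4 and 107 against 881, 385 and 423. KCTD12 and ID1 were higher under the fusion label in replicate 1, by 1.73 and 0.86. GM2A, SEMA4F, ID2 and H2BC12L were next on the lower side, with differences of -2.18, -1.49, -1.98 and -1.49, and did not pass with or without the block. The H2BC12L probe set may also read other histone genes.

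**Figure D2:**
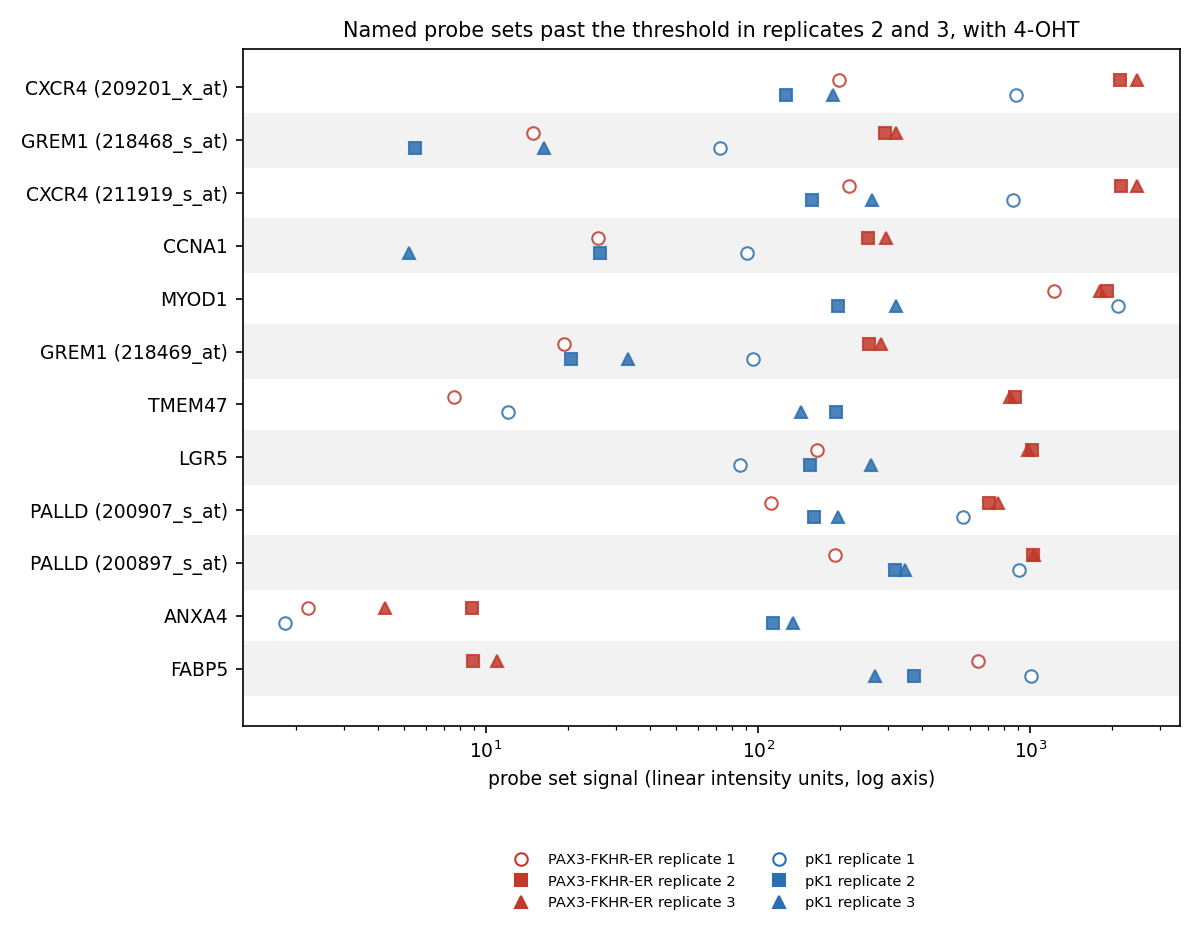
Signals (linear units on a log axis) of the 12 named probe sets past the adjusted threshold in replicates 2 and 3, by array: fusion label red, pK1 label blue; open circles are replicate 1, squares replicate 2 and triangles replicate 3. For CXCR4 the replicates 2 and 3 lie at 2126 and 2460 against 127 and 189, while replicate 1 has 198 against 885.

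Most probe sets past the threshold in replicates 2 and 3 had the opposite sign in replicate 1. Of the 13 probe sets past the threshold, 11 (84.6%) had the opposite sign in replicate 1, and LGR5 and FABP5 had the same. CXCR4, GREM1 and PALLD each count with 2 probe sets here. For ANXA4 (0.03) and TMEM47 (-0.25) the replicate 1 signals were under the pseudocount of 16 with both labels, so their signs there carry no weight; a second TMEM47 probe set, at 6.74 against 1.27, had 0.40. Of 13329 tested probe sets, 5113 had no overlap in replicates 2 and 3, and 3011 of these (58.9%) had the opposite sign. In genes by the brightest probe set, 18.3% lay higher without overlap there and 20.3% lower. The share of opposite signs over all tested probe sets was not computed, so the shares given here have no background value beside them. A difference of over 1 log2 unit the same way in replicates 2 and 3 was seen for 231 probe sets (1.73%), of which 183 (79.2%) had the opposite sign in replicate 1. Across probe sets, which are not independent, the replicate 1 differences correlated at -0.21 with those of replicate 2 and -0.18 with those of replicate 3. Replicates 2 and 3 correlated at 0.19 with each other. The median absolute difference was 0.21, 0.44 and 0.29 in replicates 1, 2 and 3. What sets replicate 1 apart, exchanged labels included, was not tested.

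**Figure D3:**
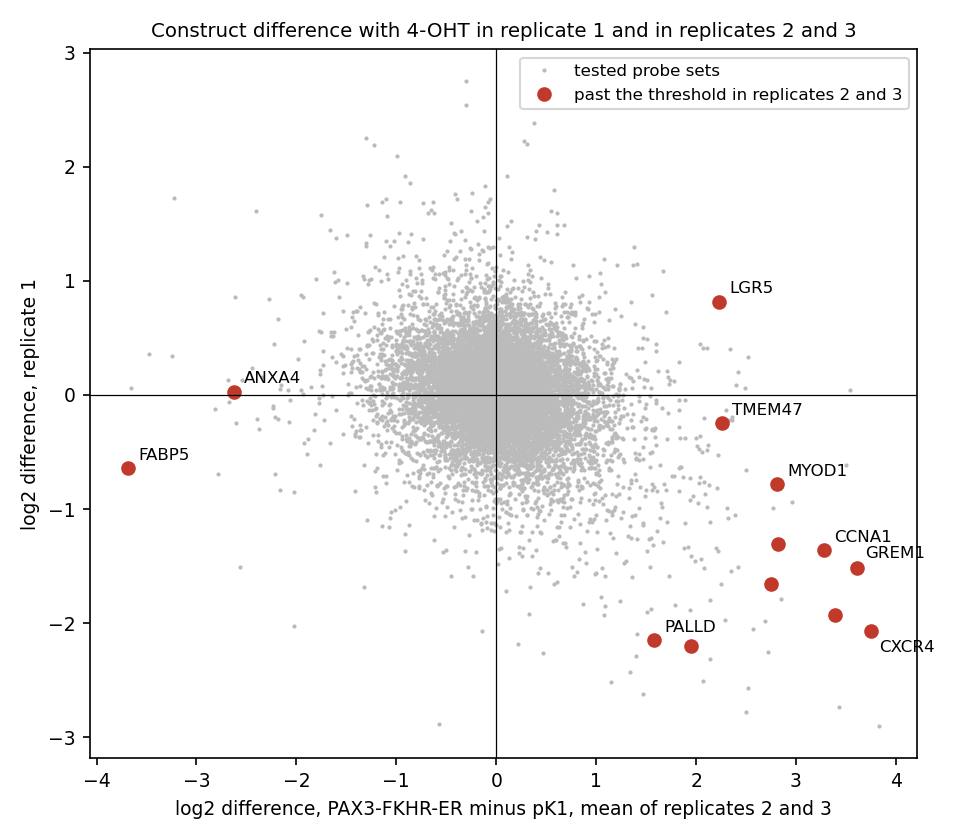
Log2 difference between the fusion and pK1 labels in replicate 1 (vertical) against the mean of replicates 2 and 3 (horizontal) for 13329 tested probe sets (grey), with the 13 past the threshold in red. Most red points on the right lie under 0 in replicate 1, with CXCR4 at -2.07, and LGR5 lies above it at 0.82.

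The construct difference with 4-OHT was also read beside the one without it, which comes from other arrays. In replicates 2 and 3 the values with 4-OHT were further from 0 for CXCR4, GREM1 and CCNA1, and those for FABP5 and ANXA4 were close, but no difference between them passed the adjusted threshold. These genes were chosen because they passed with 4-OHT on the same arrays, which favours larger values with it. In replicates 2 and 3 the CXCR4 difference was 1.15 ± 0.32 without 4-OHT and 3.75 ± 0.32 with it, a difference between them of 2.60 ± 0.46 (unadjusted p = 0.000532, adjusted p = 1). For GREM1 the values were 1.17 and 3.61, and for CCNA1 1.16 and 3.28. MYOD1 had 2.05 without 4-OHT and 2.80 with it. FABP5 had -3.78 and -3.68, and ANXA4 -2.69 and -2.63. Over 12 arrays the CXCR4 values were 0.59 without 4-OHT and 1.81 with it, and the difference between them was 1.22 ± 1.32 (adjusted p = 1). The 12-array values without and with 4-OHT were 0.50 and 1.90 for GREM1, 0.70 and 1.73 for CCNA1, and 1.32 and 1.61 for MYOD1. They were -2.42 and -2.67 for FABP5 and -1.82 and -1.74 for ANXA4. FABP5 was the 1 probe set of 13329 (0.0075%) past the threshold without 4-OHT in these replicates.

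The test of this difference called 0 of 13329 probe sets (0%) over 12 arrays and 0 (0%) in replicates 2 and 3, by limma. At an unadjusted p under 0.05 there were 39 (0.293%) and 144 (1.08%). Of the 16 genes without overlap over 6 arrays, OSR2 had 1.49 with 4-OHT and 0.08 without in replicates 2 and 3 (unadjusted p = 0.0122 for the difference). EPAS1 had -2.02 and -2.92, and CHST3 -1.32 and -1.35. Over 12 arrays the values with and without were 1.09 and 0.20 for OSR2, -2.03 and -2.18 for EPAS1, and -1.44 and -1.35 for CHST3.

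**Figure D4:**
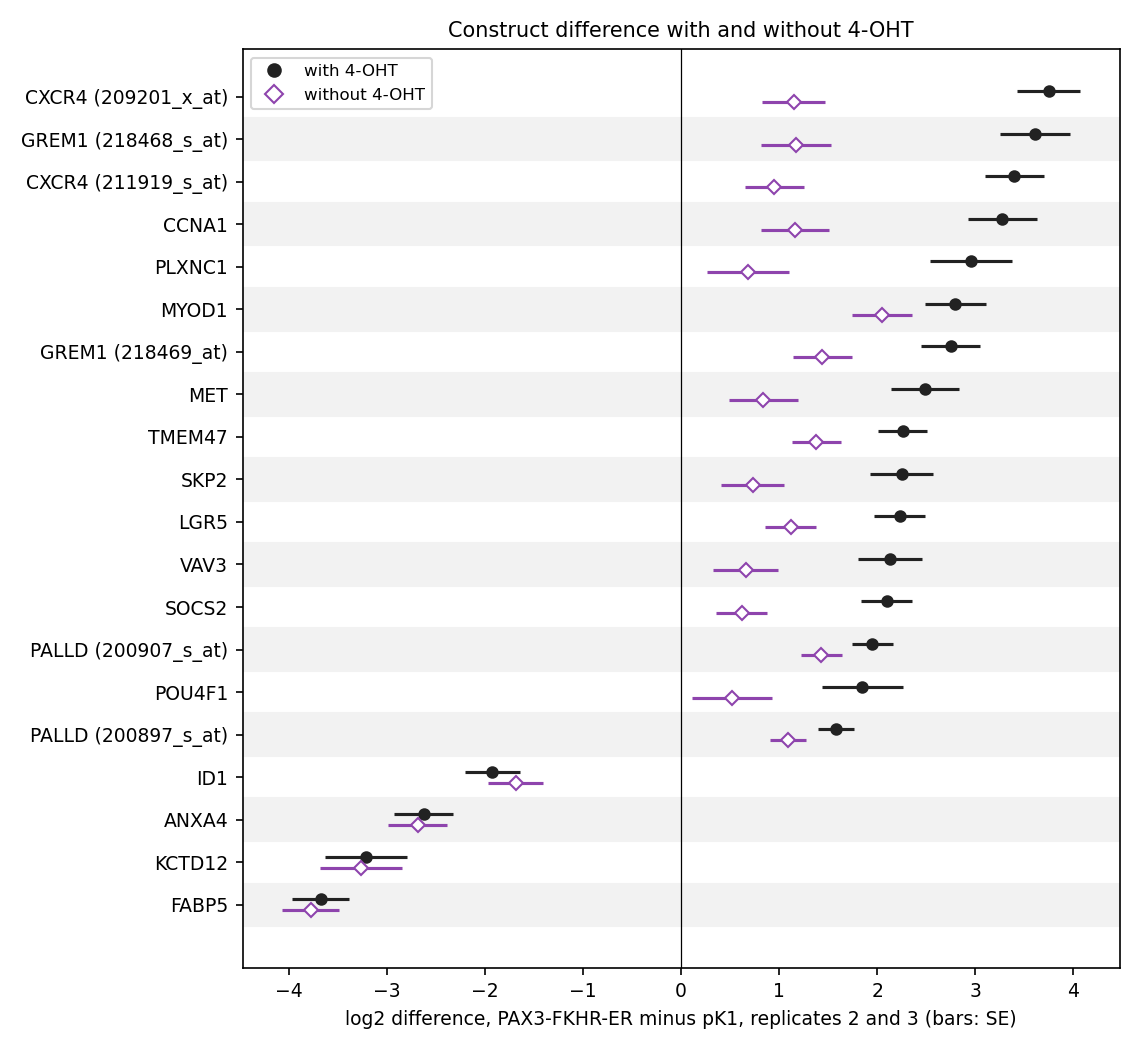
Log2 difference between the fusion and pK1 labels in replicates 2 and 3 with 4-OHT (black circles) and without it (open diamonds), with standard errors, for the named probe sets past the threshold without or with the replicate block. CXCR4 lies at 3.75 and 1.15, and FABP5 at -3.68 and -3.78.

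Genes known as targets of PAX3-FKHR had, as a list, a positive median difference in replicates 2 and 3 and a negative one in replicate 1. Of 38 listed genes 27 were tested. In replicates 2 and 3, 3 of them were higher past the threshold (CXCR4, GREM1 and MYOD1). With the block there were 4, POU4F1 added, though its adjusted p without the block was 0.251. None was lower past the threshold in either of these fits. With the block 0.123% of all genes were higher and 0.0492% lower. The median difference of the 27 genes was 0.94 in those replicates against -0.02 over all genes, and by replicate number -0.64, 1.02 and 0.69. There was no overlap on the higher side for 17 of the 27 and on the lower side for 1, HEY1, where 18.3% and 20.3% of all genes had none. Over all 6 arrays 2 of the 27 had no overlap on the higher side and 0 on the lower, against 2.95% and 2.2% of all genes.

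Among receptors on that list, FGFR4 read 575, 395 and 347 against 626, 114 and 198. Its difference in replicates 2 and 3 was 1.21 ± 0.37 (adjusted p = 0.365), with -0.12 in replicate 1. MYCN, a MYC-family factor often amplified in alveolar tumours, read 158, 177 and 90.1 against 330, 1.88 and 30.5 (2.31 ± 0.67, adjusted p = 0.342). KCNN3, a calcium-activated potassium channel named after its values were seen, read 3.89, 226 and 169 against 117, 2.40 and 4.91 (3.43 ± 0.50, adjusted p = 0.0623). HEY1, a Notch target, was the low member, at 3770, 545 and 1218 against 1896, 2717 and 2375. CDH3, a cadherin, stayed between 6.10 and 15.5 on the 6 arrays and was not tested.

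Muscle genes were divided. Of 17 tested myogenic regulators MYOD1 was higher past the threshold in replicates 2 and 3, as were 0.0862% of all genes. ID1 was lower past it with the block, as were 0.0492% of all genes. The list's median was 0.11 in those replicates and 0.26 over 12 arrays. MYOG, which acts after MYOD1 in differentiation, read 53, 20.8 and 19.7 against 35.6, 8.82 and 101, with no direction shared by the replicates. ID2 followed ID1, at 574, 44.2 and 24.5 against 456, 217 and 147 (adjusted p = 0.126). Of 29 tested contraction genes 0 passed, and the median by replicate was -0.00, 1.51 and -0.63. TNNT1, slow troponin T, came nearest, at 1359, 1607 and 1499 against 1574, 553 and 524 (1.5 ± 0.20 in replicates 2 and 3, adjusted p = 0.0623). NEB, the giant thin-filament protein nebulin, read 288, 310.0 and 211 against 157, 50.9 and 155.

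Genes of the neuromuscular junction leaned one way without passing the test. All 10 tested had a positive mean difference over 12 arrays, with a median of 0.71 against -0.00 over all genes, and 0 passed in either fit. By replicate the median was 0.18, 1.58 and 0.26. ERBB3, a neuregulin receptor, read 243, 228 and 185 against 191, 60.4 and 112. CHRNA1, the alpha subunit of the muscle acetylcholine receptor, read 1238, 2044 and 1950 against 1530, 245 and 1950. The lowest CHRNA1, ERBB3 and MYOD1 signals of the 6 arrays were all on pK1-labelled replicate 2, the array with the highest 3′ to 5′ ratios. Among the arrays without 4-OHT they were also lowest on pK1-labelled replicate 2, at 344, 70.7 and 222. Its ratios were 0.941 for ACTB and 0.902 for GAPDH. The part of these ratios in the signals was not tested. BCHE, butyrylcholinesterase, read 40.8, 1624 and 1559 against 209, 116 and 460.

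No gene of antigen presentation or the interferon response passed the test. Of 16 tested genes of the MHC and antigen processing, 5 had a positive difference over 12 arrays, and the median by replicate was -0.38, -0.24 and -0.57. HLA-C read 266, 278 and 457 against 440.0, 2303 and 1265 (-1.70 ± 0.69), and HLA-B 141, 200 and 421 against 262, 1675 and 1104. HLA probe sets read near-identical genes, so the member that differed is uncertain.

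Of 17 interferon-response genes 3 had a positive difference over 12 arrays and 0 passed, with medians by replicate of -0.01, 0.10 and -0.99. The median was away from 0 in replicate 3 and near 0 in replicates 1 and 2. IFITM1, which blocks viral entry, read 151, 82.3 and 117 against 98.2, 275 and 492.

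Signalling genes gave single members. Of 15 tested BMP, TGF-beta and activin genes, GREM1 was higher past the threshold in replicates 2 and 3, as were 0.0862% of all genes. FST, follistatin, an antagonist of activin, read 108, 505 and 328 against 206, 108 and 99.6 (1.83 ± 0.32, adjusted p = 0.14). Of 15 Wnt genes LGR5 was higher past the threshold in these replicates, and of 12 cytokine and chemokine genes CXCR4 was. Of 13 plexins, neuropilins and semaphorins PLXNC1 was higher past the threshold with the block, as were 0.123% of all genes. The medians of these 4 lists in replicates 2 and 3 were 0.32, -0.08, -0.26 and 0.16.

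Metabolic lists were mixed. Of 22 tested cholesterol synthesis genes 17 had a positive difference over 12 arrays, and 0 passed. SC5D, a late enzyme of the pathway, read 372, 651 and 670 against 349, 339 and 339 (0.65 ± 0.24 over 12 arrays), and SREBF2, the pathway's regulator, 180, 282 and 256 against 149, 111 and 174. They were the 2 of the 22 without overlap over 6 arrays, where 2.95% of all genes had none on the higher side. Of 7 fatty acid and retinoid binding genes FABP5 was lower past the threshold in replicates 2 and 3, as were 0.0246% of all genes. Over 12 arrays 1 of the 7 had a positive difference. Of 21 sulfation and heparan sulfate genes 0 passed; EXT2, which builds heparan sulfate chains, read 212, 258 and 270 against 258, 487 and 545.

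**Figure D5:**
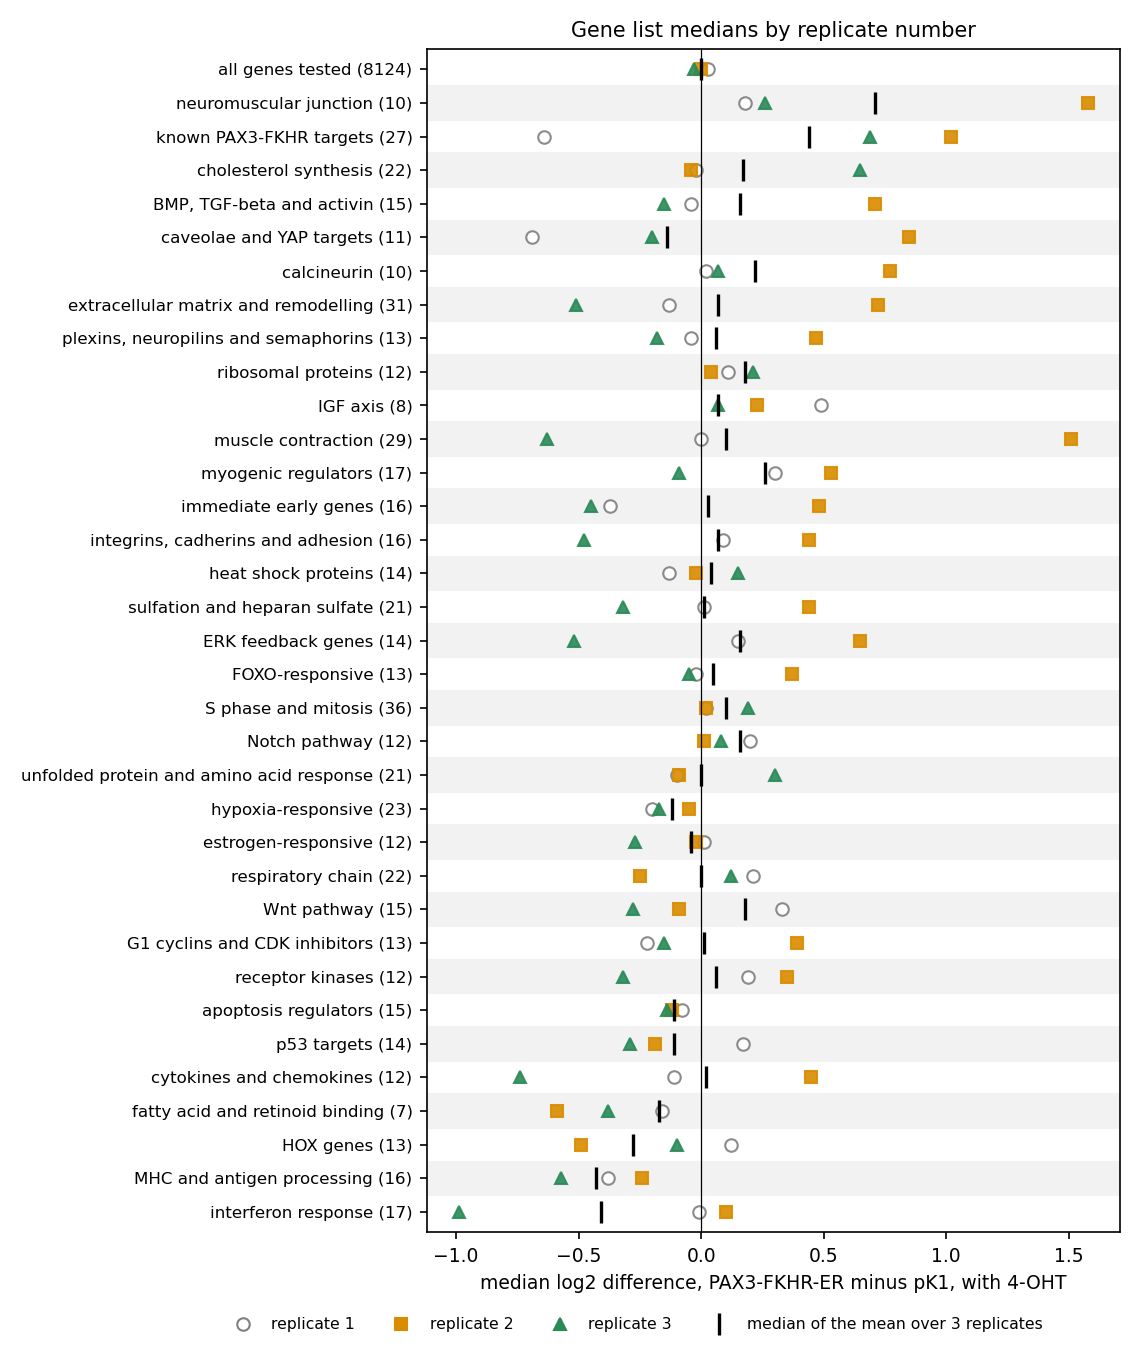
Median log2 difference between the fusion and pK1 labels with 4-OHT for gene lists with 7 or more tested genes (number in parentheses), by replicate (open circle 1, square 2, triangle 3) and for the mean of the 3 replicates (bar), in order of the median in replicates 2 and 3. Known targets lie at -0.64, 1.02 and 0.69, and all genes near 0.

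Some RD markers were bright on all 6 arrays, and others were dim on some or all of them. MYOD1, CHRNA1, TNNT1 and ACTC1 read at least 197, 245, 524 and 499. The summed signal of 10 muscle markers was 5614 to 8812 under the fusion label and 1709 to 7548 under pK1, lowest on pK1-labelled replicate 2. MYF5 was at 1.04 to 15.5, MYH3 at 1.05 to 244, MYOG at 8.82 to 101 and MYH8 at 9.16 to 86.1. Epithelial CDH1 and KRT19, haematopoietic CD14 and PTPRC and endothelial CDH5 were at most 17.2. Other members of these lists were brighter: KRT18 read 742 to 1868 and made up most of the epithelial sum, CD53 read 55.3 to 229, PECAM1 41.2 to 78.4 and TEK 3.19 to 144. Summed signals under the fusion label and pK1 were 1090 to 1389 and 848 to 1967 for 7 epithelial, 142 to 367 and 198 to 277 for 5 haematopoietic, 109 to 229 and 105 to 156 for 4 endothelial, and 3578 to 4901 and 2935 to 3453 for 6 neuronal markers. The neuronal sums did not overlap between the groups, and TUBB3 made up most of them; their part in the results was not tested.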

How the data were processed

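RNA was hybridised to Affymetrix U133A arrays, 1 per sample, per the labels' protocols. The deposited intensity values, 1 linear signal per probe set, were computed by the authors before deposit. The submitters' processing notes name GCOS and MAS5. Tool versions are not given in the sources used here, and the authors' scaling was kept. Of 22283 probe sets 68 were controls. Of the other 22215, 19065 had 1 gene symbol in the array annotation, 1043 several and 2107 none. Signals were taken as log2(signal + 16), which understates changes of dim genes, and the dimmest 40% (mean under 36.7) were dropped; 13329 probe sets, among them those of 8124 named genes, were tested. No detection calls were used. Median signals were 50.4 to 62.8, and the number of arrays limits the precision.

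Group means were fitted with limma 3.58.1 (R 4.3.3, eBayes with an intensity trend) to all 12 arrays, or to the 8 of replicates 2 and 3. Tests were two-sided, with Benjamini-Hochberg adjustment at 0.05. The fit was also run on simulated independent arrays without a replicate effect, so that run says nothing about shared populations or replicate 1. The untreated arrays entered through the spread. Where arrays of 1 construct and number share a population, they are not independent. The fit then counts more independent arrays than there are, and p-values for a difference between constructs can be too small. Deviations from group means correlated between same-numbered arrays of both constructs at 0.57, 0.18 and 0.35, so the numbers were taken to pair the samples and block fits are given where they changed a call or count. For replicates 2 and 3 the pairing was not borne out: their contrast correlated at 0.01 between constructs.

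Named genes were the 8 each way without overlap and with the smallest p over 12 arrays, 8 each way in replicates 2 and 3 (the largest differences past the threshold first), up to 4 members of each list by either fit, and PAX3, FOXO1, ESR1, FGFR4, MYCN, MYOD1, MYOG, CXCR4 and CDH3. In lists a gene is read by its brightest probe set. The comparison, the 40 gene lists and the fit to replicates 2 and 3 were chosen with earlier results of these data known. Alternatives were the pseudocount, the filter, quantile or median scaling, no intensity trend, the block, the treated arrays alone and omission of each array. Figures were drawn with matplotlib 3.10.9.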

Additional observations from a re-analysis of the deposited data

How the results depend on the processing

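The count over 12 arrays was 0 under each alternative that kept a replicate 1 array, leave-one-out and the replicate block included; without replicate 1 it was 13, and 21 with the block. In replicates 2 and 3 the count of 13 became 3 with a pseudocount of 1, 3 with no filter on dim probe sets, 7 with the lowest 60% left out, 21 with the replicate block and 0 with the 4 treated arrays alone; leaving out 1 treated array gave 0 to 22. It was 19 with a pseudocount of 64, 14 with quantile normalization, 9 with equal medians and 13 with no intensity trend. The 2 CXCR4 probe sets past the threshold and FABP5 passed in all 8 other settings on the 8 arrays (highest adjusted p 0.0343), and missed at 0.0718 with 4 arrays. The cause of these moves was not tested.

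Over 12 arrays, 791 of 818 alternative values of named probe sets kept direction and side of the threshold. Another 23 passed the threshold, all with replicates 2 and 3 alone, and 4 reversed: the second FOXO1 probe set (-0.30) became 0.04 with a pseudocount of 64 and ranged from -1.44 to 0.45 over leave-one-out, and MYOG (-0.24) from -0.79 to 0.33. The replicate block changed no call over 12 arrays. Of 799 alternative values of list medians 767 moved by less than the spread between replicates. Signals under the pseudocount, such as FABP5 at 8.93 and ANXA4 under the fusion label, could not be told from background, since no detection calls were used.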

Other observations

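Growth and housekeeping lists showed no gene past the threshold in either fit. Of 36 tested genes of S phase and mitosis 23 had a positive difference over 12 arrays, with a median of 0.10; MCM3, a replication helicase subunit, read 885, 541 and 659 under the fusion label and 729, 1196 and 910 under pK1. Ribosomal proteins (12 genes, median 0.18), heat shock proteins (14, 0.04), the unfolded protein and amino acid response (21, -0.00) and the respiratory chain (22, 0.00) also had 0. Within the last, ATP5F1C, a subunit of ATP synthase, read 1847, 861 and 761 against 1586, 2227 and 1415.

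Both sides had the drug. Of 12 tested estrogen-responsive genes 5 had a positive difference over 12 arrays and 0 passed the threshold in either fit, with a median of -0.04 and medians by replicate of 0.01, -0.02 and -0.27. NRIP1, a corepressor of nuclear receptors, was lower under the fusion label in each replicate, at 243, 108 and 179 against 339, 158 and 505 (-0.78 ± 0.53 over 12 arrays, adjusted p = 1). FOXO-responsive genes had a median of 0.05 (13 tested) and p53 targets of -0.11 (14 tested). Among immediate early genes DUSP1, a phosphatase of MAP kinases, read 224, 132 and 168 against 249, 299 and 258, and IER3 189, 103 and 94.3 against 371, 190.0 and 157; neither passed. HOX genes (13 tested) had a median of -0.28, with HOXB2 at 466, 320.0 and 369 against 311, 617 and 767.

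CAV1, the caveolar coat protein, separated replicate 1 from the rest, at 1.94, 1962 and 2033 against 15.4, 307 and 1390. In replicates 2 and 3 it was higher under the fusion label without overlap, and did not pass (1.58 ± 0.75, adjusted p = 0.586). Of 10 calcineurin genes PPP3CB, a catalytic subunit, read 440.0, 514 and 420.0 against 383, 272 and 165, and RCAN2, a regulator of that enzyme, 34.4, 23.6 and 27.9 against 43.9, 66.5 and 81.7; neither passed. TEAD1, the DNA-binding partner of YAP, read 49.9, 62.3 and 60.7 against 21.9, 24.3 and 37.1, without overlap.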
